A study of Mus musculus with 8 samples.

Results

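E proteins are transcription factors of the basic helix-loop-helix family, and Id proteins are their inhibitors. The RNA levels of 7 genes of this network were followed through early B lymphopoiesis of the mouse, the E protein genes *Tcf3*, *Tcf4* and *Tcf12*, the related factor gene *Lyl1*, and the inhibitor genes *Id1*, *Id2* and *Id3*. They were chosen by name and found by Entrez Gene identifier, 7 of the 27179 genes in the count table, and no measured value entered the choice. RNA-seq libraries came from pre-proB, proB and preB cells sorted from the bone marrow of Erg fl/fl mice, called control here, and from pre-proB cells of Rag1CreT/+;ErgΔ/Δ mice, called Erg-deficient. Each of the 4 groups had 2 libraries, from mice 7 to 10 weeks old that had no other treatment named. Both genotypes descend from floxed *Erg* alleles, *Erg* being a transcription factor gene of the ETS family, but only the Erg-deficient mice carried *Rag1Cre*, whose recombinase acts in common lymphoid progenitors and in T and B progenitors. What Cre does and what the loss of *Erg* does cannot be told apart in this comparison. No Erg-deficient proB or preB library was among the samples.

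E proteins bind DNA as dimers at short sites named E-boxes. *Tcf3* encodes E2A, that is E12 and E47, which together with its partner factors starts the B lineage program. *Tcf4* encodes E2-2, best known as the factor that sets up and keeps plasmacytoid dendritic cells, and *Tcf12* encodes HEB, which acts in early T and B lymphocytes. Lyl1 is a tissue-specific partner that pairs with E proteins in blood progenitors. Id proteins have the helix-loop-helix but lack the basic region that touches DNA, so an E protein held by an Id protein cannot bind its site. Id2 is needed by natural killer (NK) cells and other innate lymphoid cells, while Id3 responds to antigen receptor and cytokine signals in lymphocytes.

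Sequences upstream of 4 of these genes are shown because *Tcf3*, *Lyl1*, *Tcf12* and *Id2* each moved between stages, and because E-boxes and ETS sites are the letters that E proteins and Erg family factors are known for. The 250 bases before each RefSeq start (GRCm38.p6) were searched, and the stretch outside annotated exons is printed 5′ to 3′ on the gene's own strand. Capitals mark every E-box CANNTG, which reads the same pattern on both strands, and every CCGGAA, the form of ETS site searched for. CCGGAA was searched on both strands, so that the reverse match reads TTCCGG. The *Tcf3* stretch is at chr10:80433648-80433885, minus strand, and the *Lyl1* stretch at chr8:84701207-84701456, plus strand. The *Tcf12* stretch, before the most upstream of 3 listed starts, is at chr9:72111872-72112069, minus strand, and the *Id2* stretch at chr12:25096254-25096342, minus strand.
Tcf3: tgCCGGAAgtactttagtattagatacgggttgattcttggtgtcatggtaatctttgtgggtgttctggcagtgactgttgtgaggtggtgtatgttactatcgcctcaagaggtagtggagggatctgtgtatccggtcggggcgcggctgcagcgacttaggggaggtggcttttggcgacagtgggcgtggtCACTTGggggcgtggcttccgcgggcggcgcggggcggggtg
Lyl1: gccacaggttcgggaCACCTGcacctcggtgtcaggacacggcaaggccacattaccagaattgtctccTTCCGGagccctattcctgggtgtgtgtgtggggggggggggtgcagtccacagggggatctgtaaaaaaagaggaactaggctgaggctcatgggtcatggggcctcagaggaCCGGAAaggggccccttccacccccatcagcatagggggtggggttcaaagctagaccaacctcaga
Tcf12: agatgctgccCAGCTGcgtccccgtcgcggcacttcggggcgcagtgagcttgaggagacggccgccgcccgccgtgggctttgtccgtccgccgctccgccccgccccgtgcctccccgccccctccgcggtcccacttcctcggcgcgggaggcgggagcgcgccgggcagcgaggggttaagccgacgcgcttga
Id2: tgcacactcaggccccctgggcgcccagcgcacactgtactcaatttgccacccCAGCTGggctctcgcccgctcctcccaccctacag
The *Tcf3* window held 1 E-box and 1 CCGGAA match, and the *Lyl1* window 1 E-box and 2 CCGGAA matches. The windows of *Tcf12* and *Id2* each held 1 E-box and 0 CCGGAA matches. Shorter ETS letters such as TTCC, which the printed *Tcf12* stretch holds, were not searched. Over 32851 windows of the same length before RefSeq starts, 66.2% held at least 1 E-box and 12.0% at least 1 CCGGAA match. A match to such short letters is a description of the window and not a binding site. Of the 7 genes 5 matched an entry in the RefSeq table of upstream sequences. *Id3* was the fifth, and its window lay inside an annotated exon.

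The libraries held between 15565381 and 18457632 counts, so 3 counts, taken as the limit for a gene without reads, lie between 0.163 and 0.193 CPM (counts scaled to TMM-normalized library size). *Erg* itself was at 69.8 and 25.1 CPM in the control pre-proB libraries and at 2.49 and 2.58 CPM in the Erg-deficient ones, which follows the genotype labels. Control pre-proB replicate 1 stood apart from replicate 2 in B lineage genes, with the surrogate light chain gene *Vpreb1* at 190 against 63.8 CPM. In the Erg-deficient pre-proB libraries *Vpreb1* was at 0.870 and 1.61 CPM and *Igll1*, another surrogate light chain gene, at 1.43 and 2.45 CPM, both close to absent. Of 11 B progenitor markers edgeR called 5 lower and 0 higher (adjusted p below 0.05). *Ptprc* was at 1526 and 1547 CPM in Erg-deficient and 1335 and 1403 CPM in control pre-proB cells. *Il7r* was at 433 and 470 against 418 and 412 CPM, and *Dntt* at 292 and 399 against 728 and 449 CPM. All 4 pre-proB libraries held much RNA of plasmacytoid dendritic-like marker genes. The summed level of 10 such markers lay between 10987 and 11554 CPM in control and between 12501 and 12575 CPM in Erg-deficient pre-proB cells, against 930 to 982 CPM in control proB and 2459 to 2499 CPM in control preB cells. Without *Spib*, an ETS family factor gene that B cells also use, the other 9 summed to between 9672 and 11129 CPM in the 4 pre-proB libraries, 181 and 212 CPM in proB and 117 and 135 CPM in preB cells, a sum chosen after seeing the data. Summed T-like markers were at 686 to 848 CPM in control and 877 to 1495 CPM in Erg-deficient pre-proB cells, early progenitor-like markers at 795 to 937 and 961 to 1182 CPM, and myeloid-like markers at 178 to 222 and 108 to 137 CPM. *Cd4* made up most of the T-like sum, at 478 and 609 CPM in control and 1207 and 622 CPM in Erg-deficient cells. *Cd3e*, also on that list, was at 4.83 to 6.45 CPM in these 4 libraries. Most of the early progenitor-like sum was *Flt3*, at 507 to 601 CPM, and *Ly6a*, at 222 to 551 CPM, while *Kit* was at 18.4 to 28.4 CPM. *Siglech*, a receptor that marks plasmacytoid dendritic cells, was at 3892 and 3794 CPM in control pre-proB cells and at 11.1 and 11.4 CPM in preB cells. The sort gates for these B lineage populations excluded cells with surface NK1.1 or CD11c.

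The first comparison followed the 7 genes from control pre-proB to proB cells, a step towards B lineage commitment. *Tcf4* fell 8.34-fold and *Tcf3* rose 3.93-fold, while *Tcf12* fell only 1.17-fold. *Lyl1* and *Id3* rose and *Id2* fell. Of the 6 genes that passed the filter of 0.5 CPM in at least 2 libraries, edgeR called 3 higher and 3 lower (adjusted p below 0.05). In this comparison 36.2% of the 13650 genes tested were called higher and 36.8% lower, so that being called was common among all genes, and the size of a change says more about a gene here than its p. *Tcf4* ranked 1024 of 13650 by absolute log2 fold change, *Tcf3* 2147, *Lyl1* 2800, *Id2* 2981, *Id3* 4432 and *Tcf12* 11055. In bulk RNA, fewer cells of a type and less RNA per cell cannot be told apart.

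**Figure D1:**
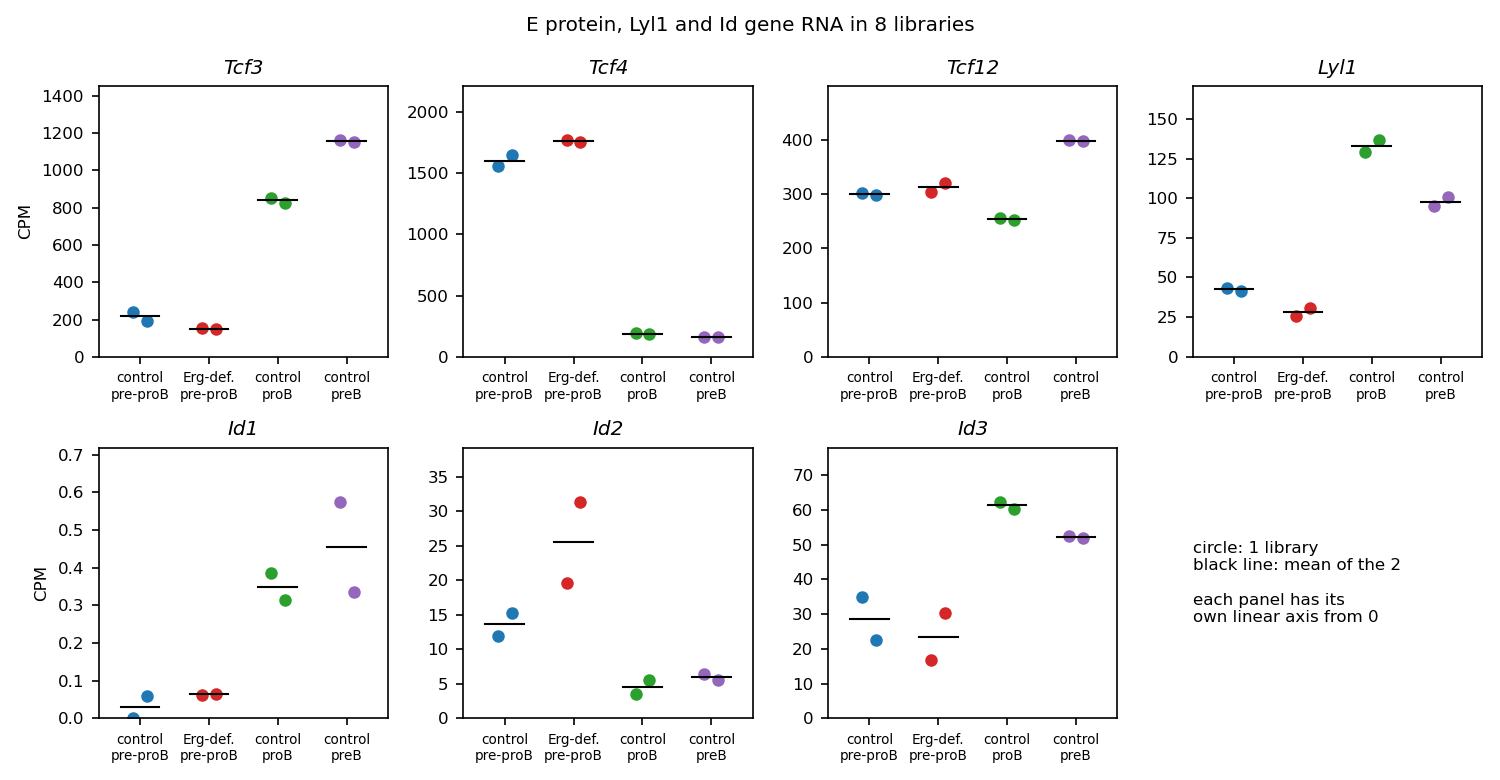
RNA level of each of the 7 genes in CPM (vertical axis, linear and starting at 0, scaled separately for each gene) in the 4 groups (horizontal axis), with 1 circle for each library and a black line at the mean of the 2. *Tcf4* sits at 1555 CPM or more in all 4 pre-proB libraries and at 191 CPM or less in all proB and preB libraries, whereas *Tcf3* is lowest in the pre-proB libraries and highest in preB cells.

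*Tcf4* (Entrez Gene 21413, chromosome 18) was counted at 1555 and 1645 CPM in control pre-proB cells. It was at 191 and 188 CPM in proB cells and at 164 and 159 CPM in preB cells. The pre-proB libraries were thus far above the others, and the spread between replicates was small beside the drop. On the log2 scale proB minus pre-proB was -3.06 (standard error 0.0772, edgeR adjusted p = 9.72e-09). PreB cells were lower than proB cells by a further log2 fold change of -0.19 (standard error 0.0729, edgeR adjusted p = 0.0470). That second call was lost without proB replicate 1 (-0.19, adjusted p = 0.181), without proB replicate 2 (-0.22, 0.117) and without preB replicate 1 (-0.21, 0.0807), and it is the weaker of the stage results for this gene.

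The plasmacytoid dendritic-like markers moved with *Tcf4*. From pre-proB to proB cells 10 of 10 of them were called lower, where 36.8% of all genes were. Their median log2 fold change was -5.78 against 0.00 over all genes tested. From pre-proB to preB cells 9 were lower, where 34.1% of all genes were, and 1, *Spib*, was higher. None of the 10 was at 0 in any library. Between proB and preB cells 6 of the 10 were called lower, as *Tcf4* was, and 2 higher. Over all genes 29.9% were lower and 29.0% higher. The median log2 fold change of the markers was -1.44 against 0.00 over all genes. The 2 that rose were *Tlr9*, an innate receptor gene, and *Spib*, which went from 802 and 718 to 2342 and 2363 CPM and made the sum over all 10 markers higher in preB cells. The fall from pre-proB to proB was not particular to this list. At that step 7 of 8 T-like markers were called lower and 1 higher (median -3.87). Of 6 early progenitor-like markers tested 5 were lower and 1 higher (-4.22), and of 12 NK-like and innate lymphoid-like markers 11 were lower and 0 higher (-3.92). Myeloid-like markers were split, with 3 lower and 3 higher. The part of plasmacytoid dendritic-like RNA in the *Tcf4* level of pre-proB cells was not tested.

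*Tcf3* (Entrez Gene 21423, chromosome 10, 80409514 to 80433647 of GRCm38, minus strand) was at 241 and 192 CPM in control pre-proB cells. It reached 853 and 824 CPM in proB cells and 1162 and 1152 CPM in preB cells. The 3 stages did not overlap. Its log2 fold change was 1.97 (standard error 0.102, edgeR adjusted p = 3.90e-07) from pre-proB to proB and 0.50 (standard error 0.0974, edgeR adjusted p = 0.00241) from proB to preB. Counts per gene do not separate E12 from E47, which arise from 1 gene by splicing. Control pre-proB replicate 1, the library with more *Vpreb1*, also had the higher *Tcf3* level.

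*Tcf12* (Entrez Gene 21406, chromosome 9, 71842688 to 72111871, minus strand) was the steadiest of the 3 E protein genes. Control pre-proB cells held 302 and 298 CPM, proB cells 256 and 252 CPM and preB cells 399 and 397 CPM. These ranges did not overlap, and proB cells were the lowest. From pre-proB to proB it fell by 0.22 on the log2 scale (standard error 0.0604, edgeR adjusted p = 0.00930), and without proB replicate 1 the call was lost (-0.22, adjusted p = 0.0631). The rise from proB to preB was larger, at 0.68 (standard error 0.0604, edgeR adjusted p = 3.63e-05).

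CPM cannot be compared between genes of different length, so each was divided by gene length in kilobases to give FPKM. With the union of all annotated exons as the length, *Tcf3* made up 43.9% and 37.4% of the summed FPKM of the 3 E protein genes in the control pre-proB libraries, *Tcf4* 41.7% and 47.4%, and *Tcf12* 14.3% and 15.2%. In proB cells *Tcf3* made up 90.0% and 89.8%, and in preB cells 90.1% and 90.1%. The share of *Tcf4* was down to 2.97% and 3.03% at the proB stage, and it was 1.88% and 1.83% at the preB stage. With this length the E protein RNA of control pre-proB cells was thus shared between *Tcf3* and *Tcf4*, and that of the later stages was mostly *Tcf3*. Their summed level went from 136 and 127 FPKM in pre-proB to 235 and 227 FPKM in proB and 319 and 317 FPKM in preB cells.

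The shares and the sums depend on the length used, since the exon union of *Tcf4* is 27382 bases but its longest transcript 8577 bases, and 4039 and 2950 bases for *Tcf3*. With the longest transcript, *Tcf4* was the leading E protein gene of control pre-proB cells at 58.3% and 63.1%, and *Tcf3* was at 26.3% and 21.3%. The summed level was then 311 and 304 FPKM in pre-proB, 352 and 341 FPKM in proB and 476 and 472 FPKM in preB cells, so that the difference between pre-proB and proB cells was much smaller than with the exon union. With the exons of transcripts that GENCODE pairs with RefSeq, a length chosen after seeing the data, *Tcf4* was at 59.5% and 64.2%. So *Tcf4* led in control pre-proB cells with both of these shorter lengths, and the near-equal shares were seen with the exon union only. The 3 lengths are from GENCODE, whereas the reads were counted on another annotation, whose exon lengths were not used. *Tcf3* led in all proB and preB libraries with each of the 3 lengths, at between 81.5% and 90.1%. The within-gene changes between stages do not depend on length.

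**Figure D2:**
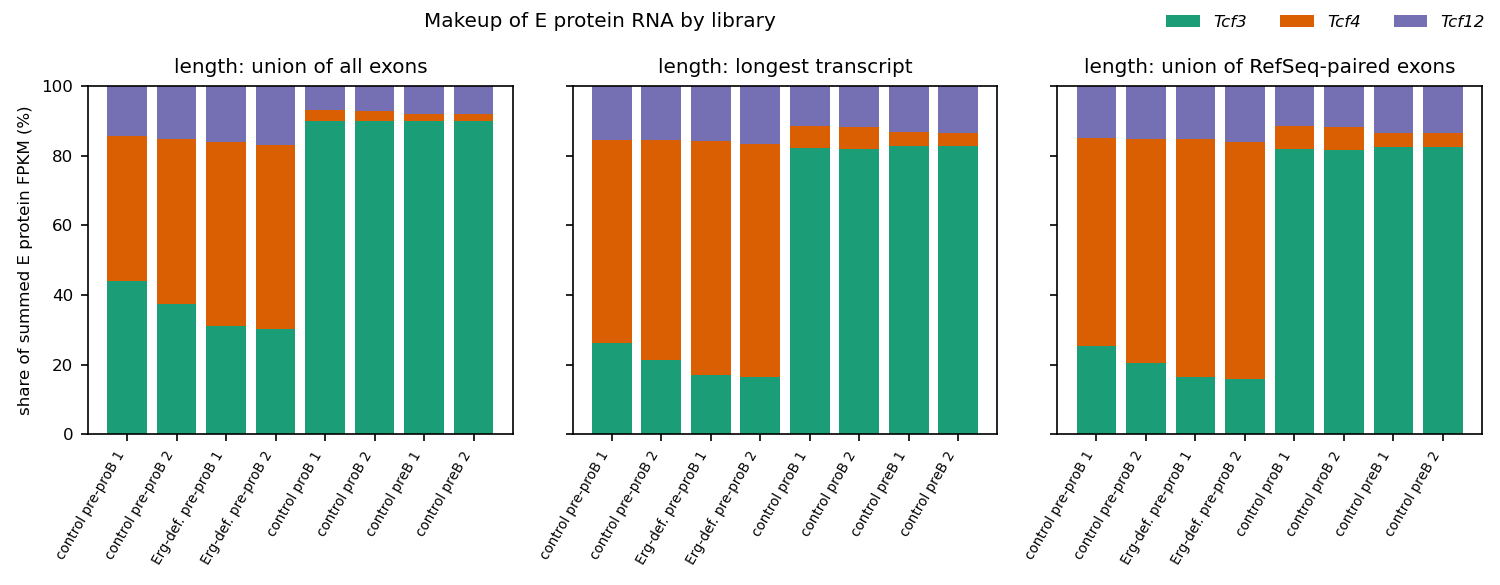
Share of *Tcf3*, *Tcf4* and *Tcf12* in their summed FPKM (vertical axis, percent) in each of the 8 libraries (horizontal axis), with a panel for each gene length used. In every panel *Tcf4* takes at least 41.7% of the sum in the pre-proB libraries of both genotypes and at most 6.76% in the proB and preB libraries.

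*Lyl1* (Entrez Gene 17095, chromosome 8, 84701457 to 84704715, plus strand) peaked in proB cells. Control pre-proB cells held 43.6 and 41.6 CPM, proB cells 129 and 137 CPM and preB cells 95.2 and 101 CPM. The ranges of the 3 stages did not overlap. In edgeR the gene rose by 1.66 on the log2 scale (standard error 0.0635, adjusted p = 7.32e-08) from pre-proB to proB and fell by 0.40 (standard error 0.0595, adjusted p = 0.000559) from proB to preB. An exon of *Lyl1* overlaps *Nfix*, a gene on the opposite strand, and the use of strand in the counting is not given in the sources used here. *Nfix* had 27 to 160 counts in a library against 413 to 2611 for *Lyl1*.

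Among the inhibitors, *Id3* (Entrez Gene 15903, chromosome 4, 136143497 to 136145755, plus strand) was the most abundant per length in all control libraries. Pre-proB cells held 34.8 and 22.4 CPM, proB cells 62.3 and 60.1 CPM and preB cells 52.5 and 51.8 CPM. The pre-proB libraries lay below the others and differed from each other by 1.55-fold, replicate 1 being the higher. Its log2 fold change towards proB cells was 1.12 (standard error 0.152, edgeR adjusted p = 0.000173). Between proB and preB cells the difference was -0.19 (standard error 0.144, edgeR adjusted p = 0.273), and it passed the threshold when either pre-proB library was left out of the fit, at -0.21 with 0.0209 and at -0.20 with 0.0247.

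*Id2* (Entrez Gene 15902, chromosome 12, 25093799 to 25097140, minus strand) went the other way. Control pre-proB cells held 12.0 and 15.3 CPM, proB cells 3.47 and 5.49 CPM and preB cells 6.44 and 5.49 CPM. The proB and preB ranges met, while pre-proB cells stood above both. Its log2 fold change towards proB cells was -1.58 (standard error 0.234, edgeR adjusted p = 0.000290). The proB to preB difference was 0.45 (standard error 0.245, edgeR adjusted p = 0.148), and without proB replicate 2 it was 0.80 with an adjusted p of 0.0412. NK-like and innate lymphoid-like markers fell with it, 11 of 12 being called lower from pre-proB to proB, where 36.8% of all genes were. These markers had a median log2 fold change of -3.92, and T-like and early progenitor-like markers fell at that step too (medians -3.87 and -4.22). From proB to preB 4 of the 12 NK-like markers were called lower and 0 higher, with a median of -0.61. Over all genes 29.9% were lower and 29.0% higher. The *Id2* estimate for that step was above 0. The part of NK-like markers in the *Id2* level was not tested.

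*Id1* (Entrez Gene 15901, chromosome 2, 152736251 to 152737410, plus strand) was at the edge of detection. The control pre-proB libraries held 0 and 1 counts, the proB libraries 7 and 6, the preB libraries 10 and 6 and the Erg-deficient libraries 1 and 1. It did not pass the filter on low values in either fit and was not tested. Summed over libraries and scaled to depth, the ratio to control pre-proB was 11.2 in proB (95% exact counting interval 1.68 to 474) and 14.5 in preB cells (2.26 to 610), intervals that cover counting error only. Even the highest library held 0.496 FPKM of *Id1*, against 29.3 FPKM of *Id3* in that library.

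Per length, with the exon union, *Id3* made up 79.8% and 66.5% of the summed *Id1*, *Id2* and *Id3* FPKM in control pre-proB cells, 95.2% and 93.0% at the proB stage and 90.3% and 91.9% at the preB stage. *Id2* made up 20.2% and 33.2% in pre-proB cells and between 3.89% and 8.14% in the later stages. The ratio of summed E protein FPKM to summed Id FPKM was 5.58 and 6.73 for pre-proB, 6.42 and 6.29 for proB and 9.84 and 10.1 for preB cells. With the longest transcript the same ratios were 9.33 and 12.0, then 6.92 and 6.81, then 10.6 and 10.8. With RefSeq-paired exons they were 8.09 and 9.83, then 6.30 and 6.13, then 9.44 and 9.68. Pre-proB cells were thus above proB cells with the latter 2 lengths, whereas with the exon union the pre-proB values lay on both sides of the proB values. PreB cells were above proB cells with each length. RNA ratios say nothing of the amounts of protein or of dimers.

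Over both steps, from control pre-proB to preB cells, 4 of the 6 tested genes were higher and 2 were lower, where 36.5% of all genes were called higher and 34.1% lower. *Tcf3* had a log2 fold change of 2.48, *Lyl1* of 1.26, *Id3* of 0.93 and *Tcf12* of 0.46. *Tcf4* was at -3.25 and *Id2* at -1.14. In the single step from proB to preB, *Tcf3* and *Tcf12* were called higher and *Lyl1* and *Tcf4* lower, where 29.0% of all genes were higher and 29.9% lower. The 3 stage comparisons share their libraries and are not independent of each other.

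The comparison of genotypes asked what the loss of *Erg* changed in these genes in pre-proB cells. *Lyl1* was 1.52-fold lower in Erg-deficient cells and was the only one of the 6 tested genes past the threshold. *Tcf3* was 1.44-fold lower and *Id2* 1.86-fold higher, neither past it, and *Tcf4* and *Tcf12* were 1.10-fold and 1.03-fold higher, not past it either. In this comparison 0.946% of the 13005 genes tested were called lower and 0.215% higher. For 1 gene alone, 2 libraries in each arm allow no exact permutation p under 0.33 (two-sided), and the p-values given here borrow the spread of other genes through edgeR.

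*Lyl1* was at 25.7 and 30.6 CPM in Erg-deficient pre-proB cells, below both control libraries. The Erg-deficient mean was 66.0% of the control mean. In log2 terms the difference was -0.60 (standard error 0.0970, edgeR adjusted p = 0.0466). The adjusted p was near the threshold, and the call was lost with limma-voom (adjusted p = 0.0905), with the replicate block (0.0648), without control replicate 1 (0.101), without Erg-deficient replicate 1 (0.192) and without Erg-deficient replicate 2 (0.103), while the log2 fold change stayed between -0.73 and -0.48 over all 11 alternatives. *Nfix* on the other strand was at 2.85 and 2.65 CPM in control and 2.61 and 1.74 CPM in Erg-deficient pre-proB cells.

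*Tcf3* was at 153 and 148 CPM in Erg-deficient pre-proB cells, and the genotypes did not overlap. The difference was -0.53 on the log2 scale (standard error 0.111, edgeR adjusted p = 0.0869). Without control replicate 1 it was -0.36 (adjusted p = 0.252), and without control replicate 2 it was -0.70 and past the threshold (adjusted p = 0.00272). It was also past it with DESeq2 (0.00108) and with all 8 libraries in 1 fit (0.0223). Of 11 B progenitor markers 5 were called lower in the same libraries and 0 higher, where 0.946% of all genes were called lower. At an unadjusted p under 0.05 there were 8, of which *Cd2*, a lymphocyte adhesion molecule gene, was higher (1.03), and *Ptprc*, *Il7r* and *Il2ra* also had values above 0. The list had a summed level of 2778 to 3780 CPM in control and 2345 to 2516 CPM in Erg-deficient libraries and none at 0. DESeq2 also called 5 of them, limma-voom called 0, and edgeR called 6 without control replicate 1 and 0 without either of the Erg-deficient replicates. The part of B lineage cells among the sorted cells in the *Tcf3* and *Lyl1* differences was not tested.

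*Tcf4* was at 1767 and 1754 CPM in Erg-deficient pre-proB cells. Set against control, its log2 difference came to 0.13 (standard error 0.0737, edgeR adjusted p = 0.516). *Tcf12* was at 304 and 320 CPM, and here the log2 difference came to 0.05 (standard error 0.0625, edgeR adjusted p = 0.798). For both genes the Erg-deficient libraries lay just above the control libraries, and neither difference passed the threshold under any of 11 alternatives. Of the 10 plasmacytoid dendritic-like markers 0 were called between genotypes by edgeR, DESeq2 or limma-voom, 2 had an unadjusted p under 0.05 in each of the 3 tools, and their median log2 fold change was 0.15. Per length, *Tcf4* made up 52.9% and 52.8% of the E protein sum in Erg-deficient cells with the exon union and 67.3% and 67.0% with the longest transcript, above both control pre-proB libraries in either case.

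*Id2* was at 19.6 and 31.4 CPM in Erg-deficient pre-proB cells, above both control libraries, and its replicates differed by 1.60-fold. Its log2 fold change was 0.90 (standard error 0.232, edgeR adjusted p = 0.158), and with DESeq2 it was past the threshold at 0.0266, as it was with the replicate block (0.0392). Without Erg-deficient replicate 2 the value was 0.52 (adjusted p = 0.435) and without Erg-deficient replicate 1 it was 1.20 (0.147). NK-like and innate lymphoid-like markers were higher in the same libraries. Of 12 such genes, whose median log2 fold change was 1.58, 5 were called higher and 0 lower, where 0.215% of all genes were called higher. Their summed level was 251 to 267 CPM in control and 360 to 534 CPM in Erg-deficient pre-proB cells, against 7.39 to 18.8 CPM at the later stages. DESeq2 called 10 of these genes and limma-voom 0, with 11 at an unadjusted p under 0.05 in each tool. In edgeR 5 were called without control replicate 1, 9 without control replicate 2, 2 without Erg-deficient replicate 1 and 0 without Erg-deficient replicate 2. None of the 12 was at 0 in a pre-proB library. Erg-deficient replicate 2, the library with the higher *Id2*, was also the higher in these markers. The part of NK-like cells in the *Id2* difference was not tested.

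**Figure D3:**
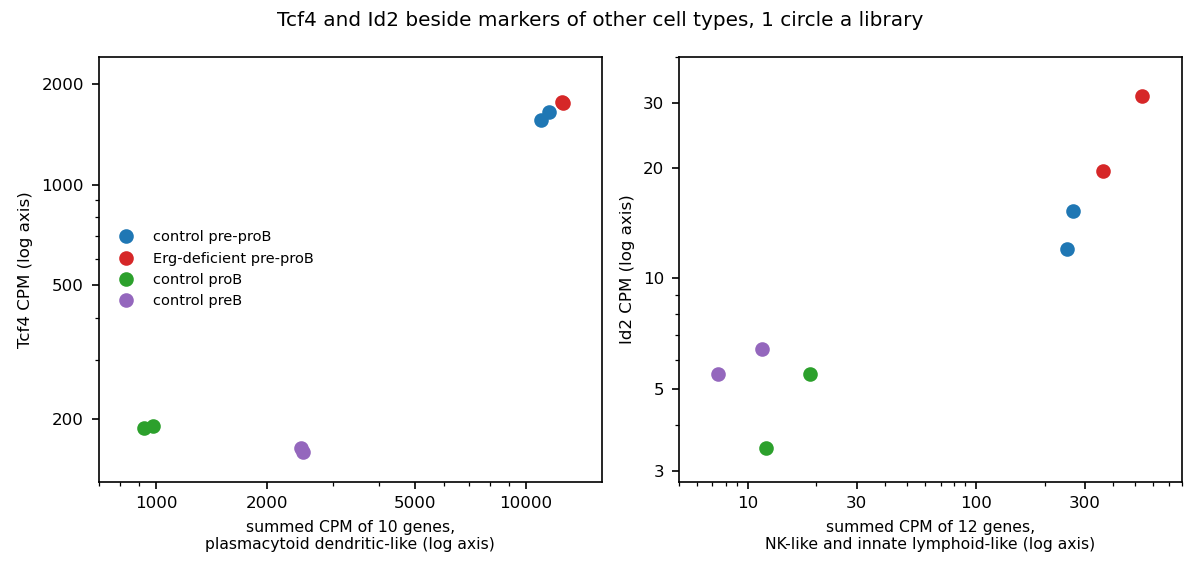
*Tcf4* level against the summed level of 10 plasmacytoid dendritic-like genes, and *Id2* level against that of 12 NK-like and innate lymphoid-like genes, both axes in CPM on log scales, with 1 circle for each of the 8 libraries coloured by group. *Spib* alone is 2342 and 2363 CPM of the sums in preB cells. The 4 pre-proB libraries hold the highest levels on both axes of both panels, and the 2 Erg-deficient libraries lie above the control pre-proB libraries. The circles of the 2 Erg-deficient libraries nearly coincide for *Tcf4*.

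*Id3* was at 16.7 and 30.4 CPM in Erg-deficient and at 34.8 and 22.4 CPM in control pre-proB cells, so the genotypes overlapped. The log2 fold change of -0.29 (standard error 0.301, edgeR adjusted p = 0.745) was smaller than its standard error, and its sign turned without control replicate 1 (0.06) and without Erg-deficient replicate 1 (0.08). With the exon union, *Id2* made up 46.3% and 43.1% of the summed Id FPKM in Erg-deficient cells against 20.2% and 33.2% in control pre-proB cells. With RefSeq-paired exons these shares were 54.1% and 50.9% against 25.7% and 40.5%. Whether *Id2* or *Id3* led in Erg-deficient cells therefore turned on the length. The ratio of summed E protein to summed Id FPKM with the exon union was 7.01 and 4.05 in Erg-deficient pre-proB cells, a range that holds both control values.

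**Figure D4:**
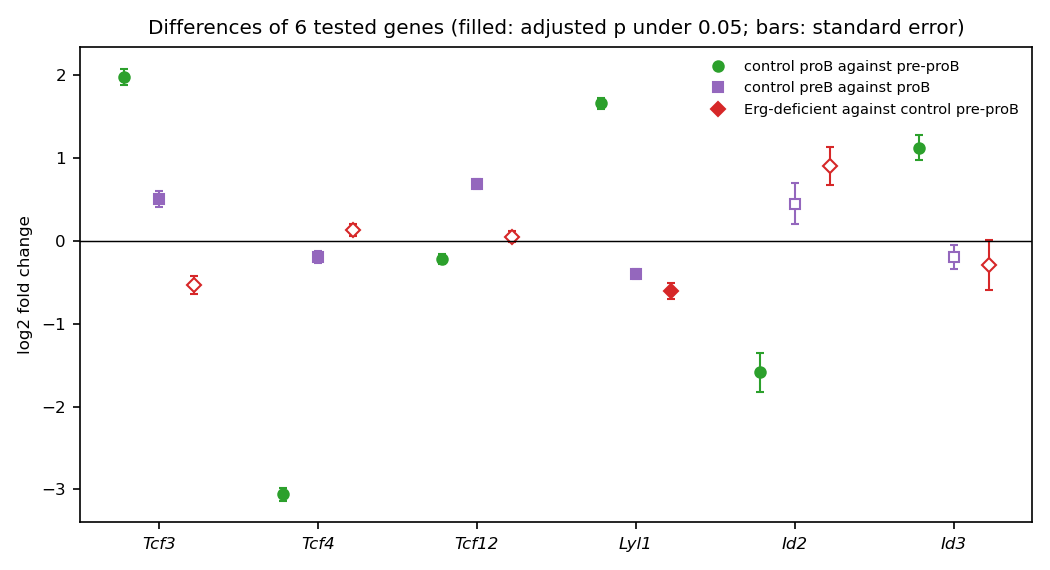
Log2 fold change (vertical axis) of the 6 tested genes (horizontal axis) from control pre-proB to proB (circles), from control proB to preB (squares) and from control to Erg-deficient pre-proB cells (diamonds), with bars for the standard error and filled symbols for an edgeR adjusted p below 0.05. The 6 differences from pre-proB to proB run from -3.06 for *Tcf4* to 1.97 for *Tcf3*, and the only filled diamond is *Lyl1* at -0.60.

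The 4 groups were ordered by the mean of each gene. For *Tcf3* the order from high to low was control preB, proB, pre-proB and Erg-deficient pre-proB, and for *Lyl1* it was proB, preB, control pre-proB and Erg-deficient pre-proB, with no overlap between neighbours in either. *Id3* had the same order as *Lyl1*, and its 2 pre-proB groups overlapped. *Tcf4* and *Id2* were highest in Erg-deficient pre-proB cells, then control pre-proB cells, and the proB and preB ranges of *Id2* overlapped. For *Tcf12* the preB libraries were highest and the proB libraries lowest, with both pre-proB groups between them, whose nearest libraries were at 304 and 302 CPM.

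The genes around E and Id proteins were described by lists written with earlier results of these data known. Of 22 known E protein targets in B progenitors, 21 were called higher and 0 lower from control pre-proB to proB. Over all genes 36.2% were called higher and 36.8% lower. The median log2 fold change of the targets was 2.17 against 0.00 over all genes. By p-value the leading genes were *Ikzf3*, a lymphoid zinc finger factor with a log2 fold change of 3.47, *Ccnd2*, a D-type cyclin at 1.86, and *Irf4*, an interferon regulatory factor at 2.89. At the step to preB cells 7 of the 22 were higher and 6 lower, where 29.0% of all genes were higher and 29.9% lower. In Erg-deficient against control pre-proB cells 11 of the 22 were lower and 0 higher, among them *Rag1*, the recombinase subunit (-4.63), and *Igll1* (-6.44). Over all genes 0.946% were called lower and 0.215% higher. The median of the targets was -2.26 against 0.01. DESeq2 called 13 of the 22 lower and limma-voom 0, where 18 had an unadjusted p under 0.05 as in edgeR. Without either of the control replicates 19 of the 22 passed the filter, and the median without control replicate 1 was -0.63. With 1 control library left, the filter can drop genes near 0 in both Erg-deficient libraries. The medians -0.63 and -2.26 thus cover different genes. The edgeR calls of this list were lost without either of the Erg-deficient replicates.

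Of the E protein partners and members of the LMO2 complex, 15 of 21 were tested in the control stages. From pre-proB to proB 7 were higher and 5 lower, where 36.2% of all genes were called higher and 36.8% lower, and the median was 0.04 against 0.00. *Lmo2*, the LIM-only bridge between Tal1 or Lyl1 dimers and GATA factors, fell by 2.55 on the log2 scale (edgeR adjusted p = 4.79e-08) while *Lyl1* rose. *Bhlhe40*, a basic helix-loop-helix repressor, fell by 3.31 and *Cbfa2t3*, the corepressor ETO2, fell by 1.03. At the next step, to preB cells, 4 were higher and 7 lower, where 29.0% of all genes were higher and 29.9% lower, and *Cbfa2t3* rose by 0.98 together with *Lmo4* at 1.03. Between the genotypes edgeR, DESeq2 and limma-voom each called 0 of the 14 tested, where 2 had an unadjusted p under 0.05 in each tool, and the edgeR median was 0.02.

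Of the genes of the BMP, TGF-beta and Egr pathways, which act on Id genes, 18 of 21 were tested. The list holds receptors, Smad and Egr factors but also the Smad repressors *Ski*, *Skil* and *Smad7*, so its counts are of pathway genes and not of inducers. From control pre-proB to proB 6 were higher and 9 lower, where 36.2% of all genes were called higher and 36.8% lower. The median was -0.26. *Tgfbr1*, the type I TGF-beta receptor, was at a log2 fold change of -2.09 and *Ski*, a corepressor of Smad proteins, at -2.27. Towards preB cells 9 were higher and 3 lower, with a median of 0.19, where 29.0% of all genes were higher and 29.9% lower. The lowest p-values were those of *Skil* (0.89) and *Tgfbr2* (0.76), while *Egr3*, chosen after its value was seen, had the largest rise at 1.21. Among 14 coregulators and stability factors of E and Id proteins, 9 were higher and 2 lower from pre-proB to proB, a median of 0.45. The shares of all genes called at each step are those just given. The lowest p-values were in the ubiquitin ligase activator *Cdc20* (2.27), *Usp1*, a deubiquitinase (1.39), and *Skp2*, the F-box protein (1.77). In preB against proB cells 3 were higher and 5 lower. Between genotypes edgeR called 0 of the 18 pathway genes, with 4 at an unadjusted p under 0.05, and DESeq2 and limma-voom also called 0. Of the 14 coregulators edgeR called 0, with 2 at an unadjusted p under 0.05, DESeq2 called 1 and limma-voom 0.

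Genes of like pattern were found by Pearson's r of log2(CPM + 0.5) over the 8 libraries, among 13247 genes with a symbol. The libraries fall into few groups, so high values are common, and 2184 genes reached 0.95 with *Tcf4*, 976 with *Tcf3* and 988 with *Lyl1*, but 191 with *Id2*, 178 with *Tcf12* and 49 with *Id3*. The 3 closest to *Tcf4* were *Alcam*, a cell adhesion molecule, *Eepd1* and *Slc27a1*, a fatty acid transporter, all at r = 1.00 after rounding. The closest to *Tcf3* were *Syvn1*, a ubiquitin ligase of the endoplasmic reticulum, *Pla2g12a* and *Snx8*, also at 1.00, and *Syvn1* went from 127 CPM in control pre-proB to 441 in proB and 605 in preB cells, with 92.2 CPM in Erg-deficient cells. Closest to *Tcf12* were *Ctps2* (0.995), *Eif2ak1* (0.993) and *Dnajc7* (0.992), and to *Lyl1* *Cnn3*, a calponin (0.996), *Mprip* (0.995) and *Scmh1* (0.995).

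Closest to *Id2* were *Sidt1* (0.990), *Klre1*, an NK cell receptor gene (0.989), and *Znhit2* (0.987). *Klre1* is one of the 12 NK-like markers and went from 4.13 CPM in control to 14.6 CPM in Erg-deficient pre-proB cells, with 0.158 CPM in proB cells. Closest to *Id3* were *Zfp827* (0.981), *Ccdc43* (0.979) and *Urod*, a haem synthesis enzyme (0.979). For *Id1* the values were 0.984 for *Tab1*, 0.983 for *ND5* and 0.983 for *Efnb3*, and they rest on at most 10 counts of *Id1* in a library. These values are descriptions over 8 libraries and carry no test.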

How the data were processed

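The file the authors deposited gives raw read counts per gene for 27179 Entrez Gene identifiers and 8 libraries. Paired-end reads were trimmed with Trim Galore, aligned to mm10 (GRCm38) with STAR and counted by featureCounts on the Entrez annotation that comes with Rsubread, after base calling with CASAVA 1.8.2 per the submitters' processing notes. For other versions, for strand and for reads shared by genes, the setting is not given in the sources used here.

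Tests used edgeR 4.0.16 in R 4.3.3 (TMM, legacy quasi-likelihood), for genes that reached 0.5 CPM in 2 or more of the libraries fitted. The 4 pre-proB libraries and the 6 control libraries were fitted separately. P-values were adjusted by Benjamini-Hochberg over all genes tested, and genes were called below 0.05. The study's methods name 2 mice of each genotype, so libraries of different control stages may share a mouse, but labels do not tie libraries or replicate numbers to mice, and p-values measure the spread between these samples. FPKM were computed as TMM-normalized CPM over gene length in GENCODE vM21, which is not the annotation the reads were counted on. Alternatives used DESeq2 1.42.0, limma-voom (limma 3.58.1), other size factors and filters, all 8 libraries, the replicate block and each library left out. Genes and lists were chosen with earlier results of these data known. The named genes are the 7 genes, *Erg*, up to 3 called genes of lowest p per list, the markers given beside a result and the 3 genes of highest r with each gene; 1 gene that this rule names is not reported here. On simulated data with 13005 genes of the pre-proB design, edgeR recovered 72 of 100 genes changed 2-fold and 93 of 100 changed 4-fold. The 24 false calls were 12.7% of all calls there, more than an adjusted p threshold of 0.05 aims at. In the design of the control stages 19 false calls were 10.7% of all calls.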

Additional observations from a re-analysis of the deposited data

How the results depend on the processing

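The number of these 7 genes called between genotypes was 1. It was 3 with DESeq2's test, 0 with limma-voom (3 at an unadjusted p under 0.05, and 41 genes called in all), 2 with all 8 libraries in 1 fit, and between 0 and 2 with single libraries left out. The stage comparisons kept every direction, and their numbers of called genes stayed within 1.5 times the reported ones. With single libraries left out the *Id3* difference between genotypes (log2) ranged from -0.78 to 0.0803, and the cause was not tested. With no filter *Id1* was tested and called higher in proB and in preB than in pre-proB cells. Deviations of libraries with the same replicate number correlated between -0.03 and 0.12. Such weak values cannot tell whether libraries with the same number share a mouse, so the pairing is unknown. With the replicate block 1 gene was called between genotypes, *Id2* (adjusted p = 0.0392 in edgeR) in place of *Lyl1* (0.0648), and 265 genes in all against 151. FPKM moved by more than the replicate SD in 17 of 28 values with the longest transcript and in 21 of 28 with RefSeq-paired exons. Fits without a library take the remaining one of its group to be as variable as the other groups. *Id1* is limited by depth.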
